A study of Bos indicus with 55 samples.

Results

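The lining of the uterus (endometrium) of cows carrying an assisted conceptus was set against that of cows carrying a conceptus conceived in vivo, on day 16 of pregnancy. The assisted class pools 21 libraries by their titles, 11 under nuclear transfer conceptuses (6 male, 5 female) and 10 under IVF conceptuses (3 male, 7 female). The in vivo class holds 6 libraries under conceptuses from artificial insemination (3 male, 3 female). These are all 27 endometrium libraries among the 55 samples of the series, and the other samples are vesicle libraries that are not analysed here. Each library is poly(A) RNA from the intercaruncular lining, the tissue between the attachment sites of the placenta, of 1 pregnant cow. Nuclear transfer puts the nucleus of a donor cell into an egg stripped of its own, and in vitro fertilisation (IVF) joins egg and sperm outside the body. Neither the donor cells nor the number of embryos given to each cow is stated in the labels. The design text calls the cows Bos taurus indicus and the conceptuses Bos taurus taurus, and the labels give Bos indicus for every sample. No animal without a conceptus is among the groups, so every difference below is between groups of pregnant cows and not against a non-pregnant state. Any difference between the classes in how the cows were made pregnant cannot be told apart from the kind of conceptus. The series title frames the endometrium as a biosensor of its conceptus.

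The bovine conceptus is still unattached at this stage and is elongating from a sphere into a long filament. Its outer cell layer, the trophectoderm, releases interferon tau, the signal by which ruminants recognise pregnancy, and the lining answers with a set of interferon-stimulated genes. Glands and surface epithelium also secrete the nutrients on which the filament grows, under the control of progesterone.

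Totals ran from 5.53 to 7.37 M counts (M for mega) in the assisted libraries. In the in vivo libraries they ran from 6.58 to 6.78 M, apart from 9.82 M in in vivo male replicate 1. The tissue was contralateral, taken from the uterine horn without the conceptus, in 1 nuclear transfer male, 1 nuclear transfer female and 1 in vivo male library, and ipsilateral in the other libraries. The table names 27607 of its 27619 genes by Ensembl identifier alone, 0 of these were paired with a gene name here, and their positions are not given. None of the 16 lists of pathway and cell type genes had a tested member, so the tissue label and the interferon response were not checked against markers, and no identifier below is given a function. In bulk tissue, fewer cells of a type and less RNA per cell cannot be told apart.

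With both types pooled and conceptus sex as a covariate, no gene passed the threshold between assisted and in vivo endometrium. Among 15315 genes tested, 0 had an adjusted p under 0.05 by edgeR (percent called 0), and the smallest adjusted p was 0.0698. At an unadjusted p under 0.05 there were 1665 genes, 10.9% of those tested, 746 of them higher and 919 lower under assisted conceptuses. DESeq2 called 84 genes, 41 higher and 43 lower, and limma voom called 0. The median size of the pooled log2 difference was 0.12 over all genes, and its median SE was 0.14. No gene had all 21 assisted libraries on 1 side of all 6 in vivo libraries (0 higher, 0 lower, 0%), and the count was also 0 without in vivo male replicate 1. Full separation of the libraries was found for 2 genes (0.0131%) with nuclear transfer alone and for 2 genes (0.0131%) with IVF alone. The edgeR count was 17 without the sex covariate and 14 in a fit of 6 group means. It became 15 without nuclear transfer female 3, 12 without in vivo female 2, 6 without IVF female 3, 4 without nuclear transfer male 6, 3 without in vivo female 1, 3 without in vivo female 3, 2 without in vivo male 2 and 1 without nuclear transfer female 4.

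The count of genes past the pooled threshold and moving in the same direction under both assisted types was therefore 0 by edgeR. By DESeq2 the count under the same rule was 84, which is all of its pooled calls. Genes chosen on the pooled contrast can hardly differ in sign between the types, so this count adds nothing to the pooled one. Taken against in vivo on its own, nuclear transfer gave 0 genes by edgeR, 26 with DESeq2 and 0 with limma voom, and 1320 (8.62%) lay at an unadjusted p under 0.05. IVF on its own gave 0 by edgeR, 46 with DESeq2 and 0 with limma voom, and 1584 (10.3%) lay at an unadjusted p under 0.05. Both comparisons share the 6 in vivo libraries, so genes that stand alike in them are not independent evidence. With a weaker rule, an unadjusted p under 0.05 in the pooled comparison and in each type with the same sign, 683 genes qualified (4.46% of those tested), 323 higher and 360 lower. Their median log2 difference was 0.49 in size, and 111 of them differed by at least 1 on the log2 scale, 54 higher and 57 lower.

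The direct comparison of both assisted types gave no gene either. Between nuclear transfer and IVF endometrium, 0 of 15315 genes passed by edgeR, 0 by DESeq2 and 0 by limma voom, and 422 lay at an unadjusted p under 0.05 (2.76%). The median size of that log2 difference was 0.09 with a median SE of 0.14. Of the 683 genes above, 6 had an unadjusted p under 0.05 between nuclear transfer and IVF and 0 had an adjusted one. These 683 were chosen for a difference of the same sign in each type. Few of them could then differ between the types, so this low count is not evidence that the types agree. A p that misses the threshold does not show that the types act alike. Intervals for single genes follow. Those genes were chosen for the same sign in both types and a small pooled p, so their intervals do not show likeness either.

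The rule for naming genes took, among genes of the same sign in both types, the 2 identifiers with the smallest pooled p in each direction. The choice used the same libraries, so the differences and library counts given for these identifiers follow in part from it. They are a description and not support for a difference. ENSBTAG00000016973 was the higher one with the smallest p. Its level ran from 47.4 through a median of 84.9 to 136 CPM (counts scaled to library size by TMM) in nuclear transfer libraries and from 44.6 through 90.6 to 148 CPM in IVF libraries. It stood at 34.6, 43.7 and 50.5 CPM under in vivo males and at 29.8, 53.3 and 32.9 CPM under in vivo females. Of the 21 assisted libraries, 18 lay above every in vivo library, and all 21 lay above the in vivo median. The class means were 89.9 ± 31.4 CPM (SD, n = 21) and 40.8 ± 9.79 CPM (SD, n = 6). The pooled log2 estimate of 1.15 (SE 0.23) had an adjusted p = 0.0785 by edgeR, at 1.07 for nuclear transfer and 1.24 for IVF. Nuclear transfer minus IVF was -0.18 on the log2 scale, with a 95% interval of -0.62 to 0.26.

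ENSBTAG00000015358, the next higher identifier, was less abundant and more variable. Its deposited counts were fractional in part of the libraries, such as 264.7 in IVF male replicate 1. Those of the other leading identifiers were whole. ENSBTAG00000015358 ran from 7.10 through a median of 18.4 to 80.8 CPM in nuclear transfer libraries and from 6.78 through 22.4 to 49.9 CPM in IVF libraries. The in vivo values were 2.38, 12.6 and 9.88 CPM under males and 3.67, 5.95 and 3.10 CPM under females. Here 16 of 21 assisted libraries lay above every in vivo library, all 9 of the male ones among them, and all 21 exceeded the in vivo median. The pooled log2 estimate of 2.12 (SE 0.43) had an adjusted p = 0.0785 by edgeR, at 2.02 for nuclear transfer and 2.23 for IVF. The 95% interval of nuclear transfer minus IVF ran from -0.98 to 0.56.

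ENSBTAG00000000357 had the smallest p of all genes and was lower under assisted conceptuses. It ran from 14.99 through a median of 19.9 to 25.01 CPM in nuclear transfer libraries and from 9.45 through 15.4 to 22.2 CPM in IVF libraries. The in vivo values were 45.0, 37.7 and 48.7 CPM under males and 33.4, 13.99 and 23.7 CPM under females. All 21 assisted libraries lay below the in vivo median, but in vivo female replicate 2 fell inside their range, so that only 3 of 21 were below every in vivo library. The pooled log2 estimate of -0.91 (SE 0.16) had an adjusted p = 0.0698 by edgeR, at -0.79 for nuclear transfer and -1.07 for IVF. Nuclear transfer minus IVF was 0.27, with a 95% interval of -0.05 to 0.60.

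ENSBTAG00000003568, the other lower identifier, was scarce. It ran from 0.899 through a median of 1.83 to 5.66 CPM in nuclear transfer libraries and from 0.630 through 2.23 to 4.10 CPM in IVF libraries. In vivo males held 58.1, 6.72 and 8.85 CPM and in vivo females 3.67, 4.32 and 4.27 CPM. In vivo male replicate 1 thus stood far above all other libraries, while 17 of 21 assisted libraries still lay below every in vivo library. The pooled log2 estimate of -2.30 (SE 0.42) had an adjusted p = 0.0698 by edgeR, at -2.36 for nuclear transfer and -2.22 for IVF, and it was -1.23 without in vivo male replicate 1. The 95% interval of nuclear transfer minus IVF ran from -1.11 to 0.84.

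With all libraries none of the 4 passed the pooled threshold by edgeR, but each passed under some other setting, DESeq2 among them for all 4. With libraries left out 1 at a time, ENSBTAG00000016973 passed in 4 of 27 fits, ENSBTAG00000015358 in 0, ENSBTAG00000000357 in 6 and ENSBTAG00000003568 in 7. Of 13 other alternatives they passed in 3, 1, 5 and 6. For ENSBTAG00000000357 the edgeR adjusted p lay between 0.00196, without in vivo female 2, and 0.327. IVF alone against in vivo gave ENSBTAG00000000357 an adjusted p = 0.0519 by edgeR, and it passed in 5 of 27 such fits and in 5 of 11 other alternatives. The libraries whose removal gave a pooled call to at least 1 of the 4 were IVF female 3, nuclear transfer females 3 and 4, nuclear transfer male 6, the 3 in vivo females and in vivo male 2.

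**Figure D1:**
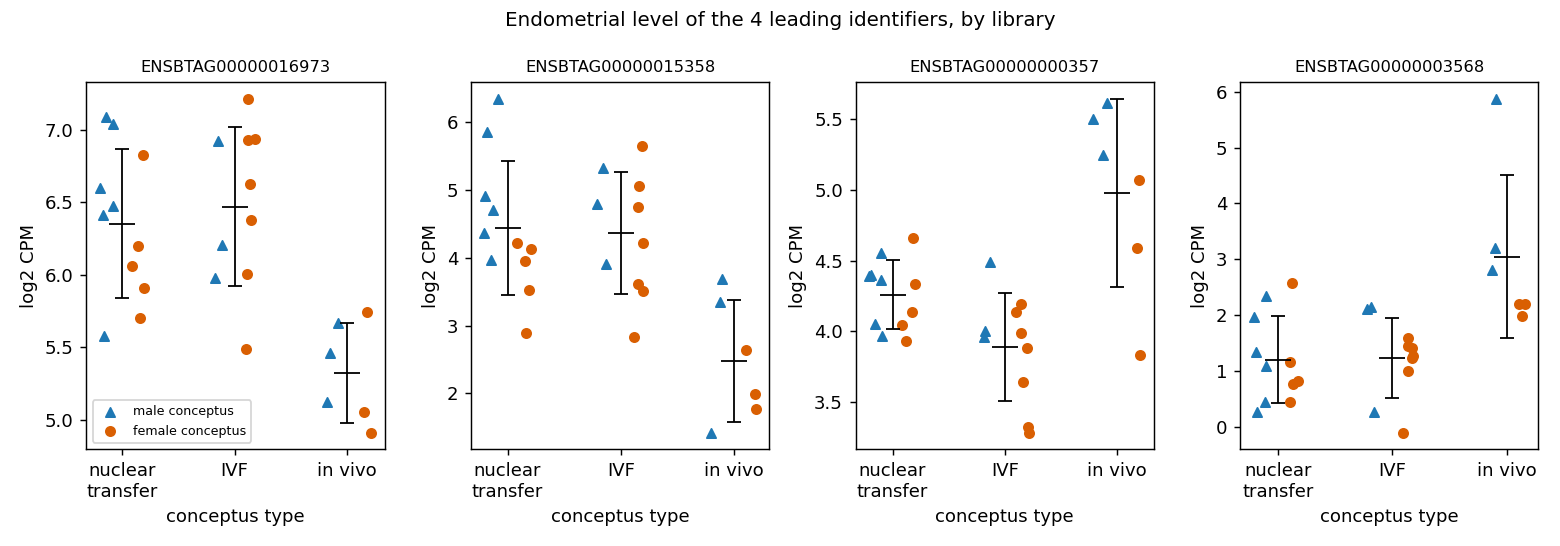
Level of 4 Ensembl identifiers in each endometrium library, as log2 CPM (vertical axis), by conceptus type (horizontal axis); points are libraries, triangles for male and circles for female conceptuses, and black bars are the mean and SD of a type. For ENSBTAG00000003568 in vivo male replicate 1 (58.1 CPM) stands above all others.

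TBL1X, whose product works in a corepressor complex of nuclear receptors, was the 1 tested row that carries a symbol. The other symbols of the table include SRY, ZFY and DDX3Y, and the row is taken here as the file names it. Its deposited counts were also fractional in part of the libraries, such as 147.17 in IVF female replicate 1. TBL1X averaged 22.5 ± 2.81 CPM (SD, n = 21) under assisted and 22.1 ± 2.00 CPM (n = 6) under in vivo conceptuses. Assisted minus in vivo was 0.03 on the log2 scale, with a 95% interval of -0.15 to 0.20 (adjusted p = 0.940 by edgeR).

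The sample codes in the labels carry a digit from 1 to 4, whose meaning is not given. All 3 in vivo males carry a 3, while of the 9 assisted males 1 IVF male does and no nuclear transfer male does. Class and digit can therefore hardly be told apart under males. Among libraries of digit 2 (6 assisted, 2 in vivo females) 0 genes passed by edgeR. Among those of digit 3 (5 assisted, 4 of them female, and the 3 in vivo males) 128 did, 60 higher and 68 lower. The log2 differences within digits 2 and 3 were 0.71 and 1.36 for ENSBTAG00000016973, 2.54 and 1.47 for ENSBTAG00000015358, -0.13 and -1.32 for ENSBTAG00000000357, and -0.51 and -3.76 for ENSBTAG00000003568. Digit 1 has no in vivo library, and digit 4 has 1 in vivo and 2 IVF libraries, too few for a value. Since the in vivo libraries of digit 2 are all female and those of digit 3 all male, digit and sex cannot be told apart in these values.

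On the principal components of log2 CPM, the class means differed along the second one, where only the in vivo males lay apart from the assisted libraries. The first component (17.4% of the variance) averaged 1.99 ± 23.7 (SD, n = 21) in assisted and -6.95 ± 28.5 (n = 6) in in vivo libraries, with an exact two-sided permutation p = 0.443 over 296010 arrangements. The second (13.1%) averaged 5.89 ± 9.37 in assisted and -20.6 ± 36.7 in in vivo libraries (exact permutation p = 0.00461, adjusted over both components 0.00922). The 3 in vivo males lay at -88.8, -21.3 and -26.2, below all 21 assisted libraries, and the in vivo females at -6.76, 13.99 and 5.44, inside the assisted range of -16.9 to 20.4. Computed again without in vivo male replicate 1, the components gave adjusted exact permutation p = 0.252 and 0.735.

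**Figure D2:**
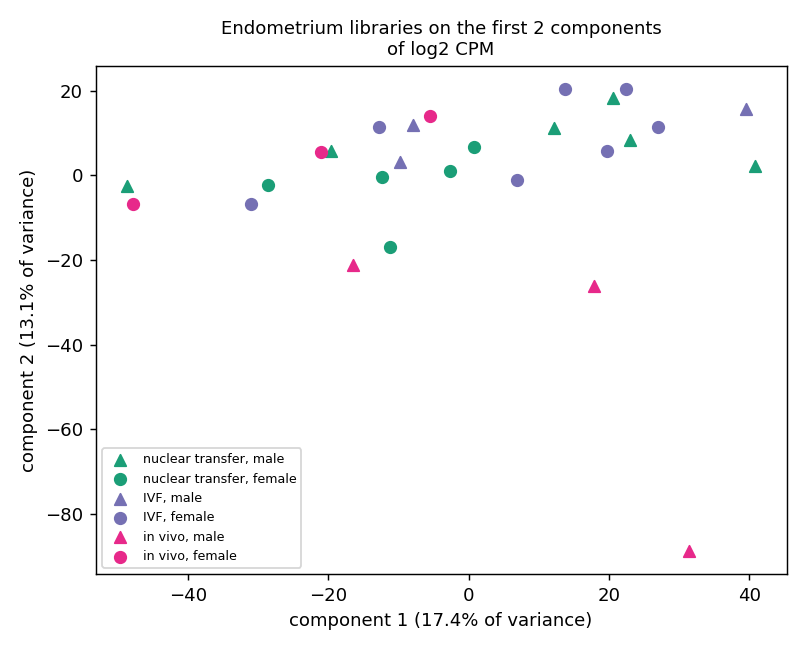
Each of the 27 endometrium libraries on the first (horizontal) and second (vertical) principal component of log2 CPM; colour is the conceptus type and shape the conceptus sex. The 3 in vivo male libraries, from -88.8 to -21.3, are the lowest on the second component.

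Split by conceptus sex, many genes passed the threshold between the classes under males and none under females by edgeR. Under male conceptuses 1068 of 15315 genes passed by edgeR (6.97%), 359 of them higher (2.34%) and 709 lower (4.63%) under assisted conceptuses. The fit held class, sex and their product over all 27 libraries, and 3690 genes had an unadjusted p under 0.05 (24.1%). All 3 in vivo males carry code digit 3, against 1 of the 9 assisted males. Class and digit can thus hardly be told apart in this male comparison. Under female conceptuses 0 passed by edgeR and 0 by DESeq2, while limma voom called 17, and 868 genes had an unadjusted p under 0.05 (5.67%). The interaction itself, which tests whether the class difference depends on sex, was past the threshold for 214 genes (1.40%), 83 with a more positive (0.542%) and 131 with a more negative difference under males (0.855%). The male comparison sets 9 libraries against 3 and the female one 12 against 3, and the median SE of the log2 difference was 0.20 and 0.19. The libraries of both classes did not overlap for 636 genes under males (4.15%) and for 116 under females (0.757%). By chance such separation is more likely with 9 against 3 libraries than with 12 against 3, so both shares are not directly comparable.

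Under males the genes that passed covered a wide range of sizes. Their median difference was 0.79 on the log2 scale for the 359 that rose (higher under assisted conceptuses) and -0.70 for the 709 that fell. By at least 1, 134 rose and 216 fell. The largest rise was 6.08 and the largest fall -4.28. Against the in vivo males that both types share, the median difference for the genes that rose was 0.80 in nuclear transfer males and 0.80 in IVF males. For those that fell the medians were -0.64 and -0.63. These genes were called on a contrast that pools both types, so like medians follow from the choice and do not show agreement between the types. With the genes cut into 4 equal bands by mean level over all libraries, 9.92% of the highest band and 3.68% of the lowest were called under males, and the median SE of the pooled difference in these bands was 0.09 and 0.29.

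Libraries under females, which share no animal with the male comparison, gave no like pattern for the same genes. The 359 that rose under males had a median log2 difference of -0.03 under females, and 153 of them (42.6%) were positive there. The 709 that fell had a median of 0.09 under females, and 196 (27.6%) were negative there. Over all 15315 genes the sign was the same in both sexes for 43.1%. For the genes that fell, in vivo males stood above in vivo females by a median of 0.66 on the log2 scale, while assisted males and assisted females differed by a median of -0.05. For those that rose the corresponding medians were -0.73 and 0.10. These genes were chosen by a contrast that the in vivo males enter, so the distance of that group is a description and not a test.

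**Figure D3:**
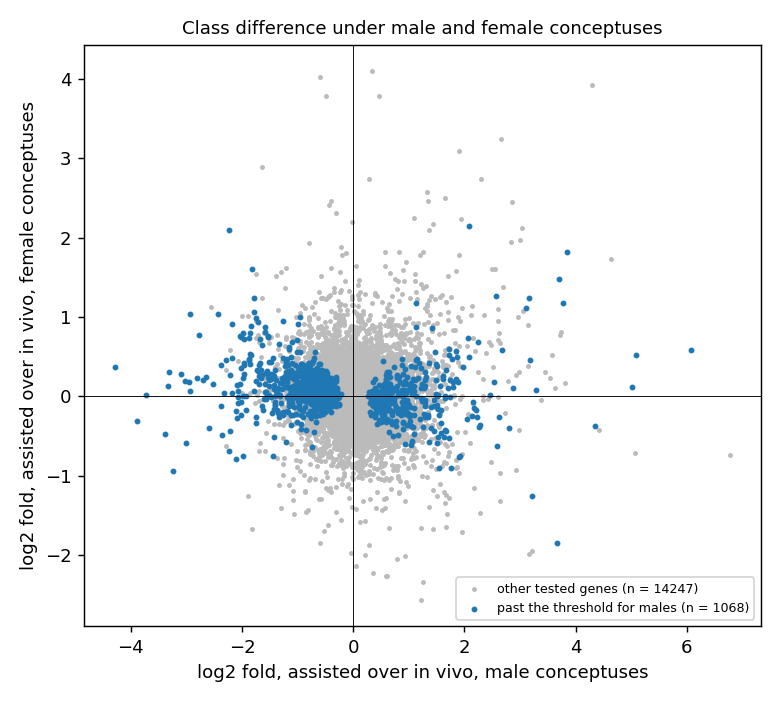
Log2 fold of each tested gene, assisted over in vivo, under male conceptuses (horizontal axis) and under female conceptuses (vertical axis); blue points are the 1068 genes past the threshold under males and grey points the other 14247. The blue points spread along the horizontal axis and centre near 0 on the vertical one.

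The leading identifiers did not all show a larger difference under males. Both higher ones differed by nearly the same amount in each sex: ENSBTAG00000016973 by 1.13 under males (SE 0.34, adjusted p = 0.0430 by edgeR) and 1.17 under females (SE 0.33, adjusted p = 0.718 by edgeR), and ENSBTAG00000015358 by 2.09 (SE 0.61, adjusted p = 0.0387 by edgeR) and 2.15 (SE 0.64, adjusted p = 0.757 by edgeR). The male minus female difference of these log2 values was -0.05 with a 95% interval of -0.97 to 0.87 for ENSBTAG00000016973. For ENSBTAG00000015358 it was -0.07 with an interval of -1.71 to 1.58. Both intervals are wide. The identifiers were chosen by p in a fit that pools the sexes, which favours genes that differ alike in both. Like values in each sex follow in part from that choice and are a description, not a test. ENSBTAG00000000357 fell under males, at -1.21 (SE 0.21, adjusted p = 0.00172 by edgeR), and stood at -0.58 under females (SE 0.22, adjusted p = 0.846 by edgeR). ENSBTAG00000003568 fell under males, at -3.24 (SE 0.49, adjusted p = 0.000543 by edgeR), and stood at -0.94 under females (SE 0.54, adjusted p = 0.859 by edgeR). Neither interaction passed the threshold, with an adjusted p = 0.266 and 0.111 by edgeR. Leaving out libraries 1 at a time, the male call of ENSBTAG00000016973 was lost in 9 of 27 fits by edgeR: without any 1 of the 3 in vivo males, without IVF male 1 and without any 1 of nuclear transfer males 1 to 5. Its adjusted p in these 27 edgeR fits lay between 0.0268 and 0.436, the highest without in vivo male 1, while its log2 difference stayed between 0.985 and 1.25. Of 10 other alternatives 5 lost the call as well, with an adjusted p of up to 0.724. The male call of ENSBTAG00000015358 was lost in 3 of the 27, without nuclear transfer male 3, in vivo male 1 or in vivo male 3, with an edgeR adjusted p of up to 0.448, and in 4 of the 10. For ENSBTAG00000003568 the only one of the 27 to lose it was that without in vivo male 1, at an edgeR adjusted p = 0.230, and for ENSBTAG00000000357 none did. Both lost it in 1 of the 10, which left out in vivo male 1 and the 3 contralateral libraries.

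The male result rested on few libraries. Without in vivo male replicate 1, the library with the largest total, 37 genes passed under males (6 higher, 31 lower), 35 of them among the 1068. Of the 1068 genes 1063 kept their sign. They were chosen with libraries that stay in this fit, so the kept signs are not a separate test. Without in vivo male replicate 2, which is contralateral, 2213 passed. The interaction count was 3, 1439 and 347 without in vivo males 1, 2 and 3, and 30, 1 and 13 without in vivo females 1, 2 and 3, and 358 without nuclear transfer male 1. A fit of the male libraries alone gave 235 genes, and the code digit as a factor gave 499 under males and 0 for the interaction. ENSBTAG00000003568 was at -1.58 under males without in vivo male replicate 1 (adjusted p = 0.230 by edgeR).

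**Figure D4:**
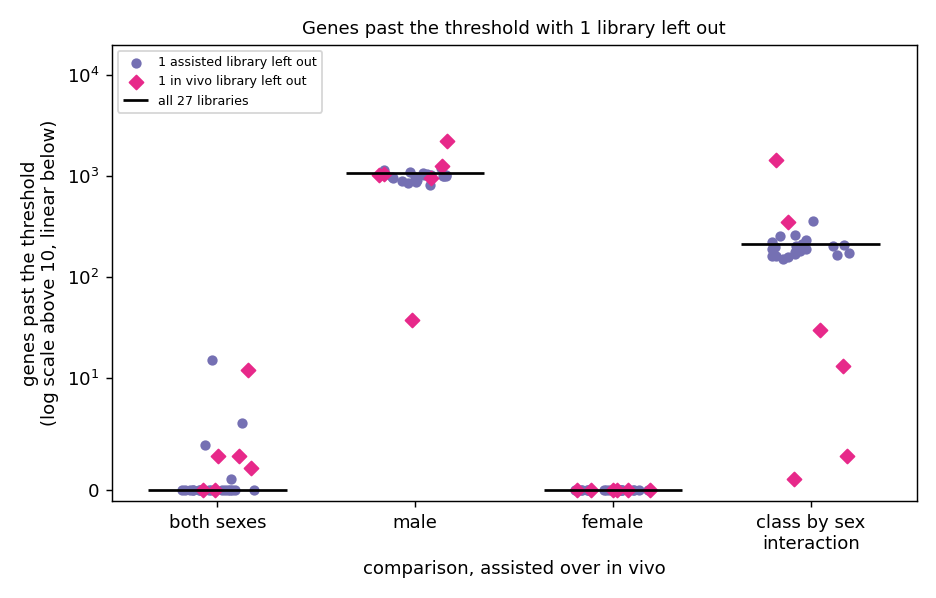
Number of genes past the threshold (vertical axis, log scale above 10 and linear below) in each comparison of assisted with in vivo endometrium, with all 27 libraries (black line) and with each library left out in turn (points; diamonds for an in vivo library). The male count is 37 without in vivo male replicate 1, against 1068 with all libraries.

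The spread between libraries was also taken by group. The median SD of log2 CPM over genes was 0.29 in nuclear transfer males (n = 6), 0.24 in IVF males (n = 3) and 0.32 in in vivo males (n = 3). Among females it was 0.25 for nuclear transfer (n = 5), 0.27 for IVF (n = 7) and 0.22 in vivo (n = 3). The in vivo males thus had the largest and the in vivo females the smallest median of the 6 groups, each over 3 libraries. An SD over few libraries tends to fall short of the true spread, most so at n = 3. Groups of unlike size are therefore not directly comparable. The in vivo males also hold the library with the largest total and a contralateral one, and the differences in spread were not tested.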

How the data were processed

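The submitters' processing notes name ARS-UCD1.2 as the build and, among the tools, cutadapt, STAR, featureCounts and DESeq2. No source used here gives their versions, the gene annotation, or whether reads were counted by strand. The authors deposited estimated counts per gene for 27 endometrium libraries, not normalized, of which 85.2% of the values above 0 were whole within 0.004. They were rounded to whole numbers. The vesicle table was not used here.

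Genes were kept by filterByExpr on the 2 classes (minimum count 10, minimum total 15), which left 15315 genes holding 99.8% of the counts. They were tested with edgeR 4.0.16 (TMM scaling, quasi-likelihood F test, two-sided, Benjamini-Hochberg adjustment, threshold 0.05) in R 4.3.3. The pooled comparison was fitted as sex plus class and the type comparisons as sex plus type. The comparisons by sex were fitted as sex, class and their product. SE came from the fold and its F statistic, and 95% intervals used the residual degrees of freedom. CPM were TMM-scaled, and log2 CPM used a prior count of 2. DESeq2 1.42.0 and limma 3.58.1 (voom with quality weights) were alternatives.

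Each library is from a different cow, per the animal numbers in the labels. The comparison, gene lists and tests were chosen with earlier results of these data known. The naming rule takes, among genes of the same sign in both types and a mean log2 CPM of 1 or more, the 2 identifiers per direction with the smallest p where none is called, and tested rows with a symbol.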

Additional observations from a re-analysis of the deposited data

Results flagged for a closer look

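Within the 6 in vivo libraries, in vivo male replicate 1 lay far from the others in its total, at 9.82 M counts (M for mega) against 6.58 to 6.78 M, and in ENSBTAG00000003568, at 58.1 CPM against 3.67 to 8.85 CPM. Among the 7 IVF female libraries, IVF female replicate 2 held 0.630 CPM of ENSBTAG00000003568, the others 1.70 to 2.72 CPM. Of 40 such checks, each of a quantity in a group of libraries, 3 flagged a library, and chance gives about 1 in 20 for a single check. The checks share libraries, so they are not independent. The edgeR interaction test of class and conceptus sex was past the threshold for 214 genes, and for 0 with the code digit as a factor. In the in vivo class no digit is shared by males and females, so digit and sex cannot be told apart there. Without the digit as a factor, the interaction count was 3 without in vivo male replicate 1 and 1 without in vivo female replicate 2.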

How the results depend on the processing

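Counts of genes by edgeR with all libraries were 0 for assisted against in vivo, for each type and for females, 214 for the interaction and 1068 for males. The pooled count became 84 by DESeq2, 5 with no low count filter, 17 with no sex term, 14 with 6 group means, 3 without the contralateral libraries and, chosen after seeing the data, 128 within code digit 3, and the count of genes alike in both types became the same 84, 5, 17, 14 and 3. It stayed at 0 with limma voom, DESeq2-style size factors, the code digit as a factor, counts rounded down and, also chosen later, within code digit 2 and without in vivo male 1 and the contralateral libraries. IVF against in vivo gave 46 by DESeq2, 3 with no sex term, 2 with 6 group means and 1 each with DESeq2-style size factors and the code digit. Nuclear transfer against in vivo gave 26 by DESeq2 and 2 without the contralateral libraries. The female count was 17 by limma voom. The interaction gave 712 by DESeq2, 111 with no filter, 1281 without the contralateral libraries, 0 with the code digit and 11 without in vivo male 1 and the contralateral libraries. The male count was 1647 by DESeq2, 478 by limma voom, 2100 without the contralateral libraries, 499 with the code digit, 29 without in vivo male 1 and the contralateral libraries and 235 with males alone. The cause of these changes was not tested.

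With 1 library left out, the counts ran from 0 to 15 pooled and for both types alike, from 0 to 8 for IVF, from 0 to 1 for nuclear transfer, from 1 to 1439 for the interaction and from 37 to 2213 for males, and stayed at 0 for females and between both types.

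Replicate numbers showed no pairing in the expression values. Over 52 pairs of libraries with the same number, deviations from group means correlated at a median of -0.03 (-0.33 to 0.30). Over 244 pairs with different numbers the median was 0.003. Of 27 libraries, 6 were closest to one of their own number. Whether the numbers mark a shared batch was not tested. With the number as a replicate block the pooled count was 0, the interaction count 76 and the male count 508.

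Small differences changed sign. The interaction of ENSBTAG00000016973 was 0.00145 without the contralateral libraries, 0.76 with the code digit and 0.00505 with the replicate block (-0.35 to 0.11 with 1 library left out), and that of ENSBTAG00000015358 was 0.42, 0.0601 and 0.087 (-0.53 to 0.38). Nuclear transfer minus IVF was 0.18 with no sex term and 0.17 with the replicate block for ENSBTAG00000015358 (-0.38 to 0.0081 with 1 library left out) and 0.036 with no sex term for ENSBTAG00000003568. TBL1X was at -0.075 within code digit 3 (-0.012 to 0.052 with 1 library left out). The pooled differences of the 4 identifiers kept their sign in the 13 alternatives and 27 fits with 1 library left out. In vivo libraries number 6, and this limits each comparison with them.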
